A study of Mus musculus with 4 samples.

Results

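The genes described here encode subunits of the SWI/SNF chromatin remodeling complexes, their associated transcription factors Bcl11a and Bcl11b, and 4 related ATPases. They are 34 genes chosen by symbol, all of them protein-coding, of the 21900 protein-coding genes in the RefSeq table for GRCm38. A total of 23 were present in at least 1 of the deposited ChIP lists and 11 in neither. The measurements are p-values from chromatin immunoprecipitation followed by sequencing (ChIP-seq) of tubular cells from newborn mouse kidneys, in a study that searched for direct targets of the forkhead transcription factor Foxp1 in the distal tubule. The groups were a ChIP and an input of Foxp1KspKO mice, and a ChIP and an input of littermate controls, with 1 library in each.

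Ksp-cadherin, encoded by Cdh16, is the gene whose promoter is commonly used to express Cre recombinase in renal tubule epithelium, and it gives the knockout its name. The labels name neither the floxed allele, the Cre line nor the genotype of the littermates, and cells without Cre in the digested kidney would keep Foxp1. The number of animals behind each library is not given in the sources used here. The antibody field gives the Foxp1 antibody for the Foxp1KspKO ChIP and rabbit IgG for the control ChIP. The sample descriptions give both ChIP libraries the same FoxP1 prefix, and the discrepancy was not resolved. The libraries are named below by the genotype in their titles. If the antibody field is right, antibody and genotype cannot be told apart in any difference between them. The lists hold no positions, reads or fold values, so depth is unknown, and a gene that is not listed has no value of any kind. Foxp1 had no row in any of the 3 lists. A ChIP p-value per gene would not show a deletion, so the genotype labels have no check here. The tissue label cannot be checked against marker expression in ChIP data. With 1 library per genotype no difference below has a replicate check.

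SWI/SNF complexes use the energy of ATP to slide or evict nucleosomes and so open promoters and enhancers to transcription factors. A catalytic ATPase, Smarca4 (BRG1) or Smarca2 (BRM), is joined to core subunits, grouped here as the shared core. That label is a role and does not state that every complex holds all of them. Further subunits then define canonical BAF, PBAF or non-canonical BAF. In the kidney these genes are best known from tumours, since PBRM1 is often mutated in human clear cell renal carcinoma and SMARCB1 is lost in malignant rhabdoid tumours. Many subunits come as paralogs that replace each other in the complex, and some of these, such as Actl6b, Dpf1, Dpf3 and Ss18l1, are typical of neurons.

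The DNA at the start of the 4 genes with the lowest control p-values for which the RefSeq table of GRCm38.p6 holds a window is printed here, with that of Smarca4, the paralog of Smarca2 that was in neither list and was chosen after its values were seen. Each window runs 5′ to 3′ from 250 bases before to 50 bases after an annotated start, and capitals mark the CG dinucleotides. The windows are chr19:26604910-26605209 on the plus strand for Smarca2, chr17:4994824-4995123 on the plus strand for Arid1b, chr11:24080445-24080744 on the plus strand for Bcl11a, chr12:83487687-83487986 on the minus strand for Dpf3 and chr9:21615919-21616218 on the plus strand for Smarca4. Those of Arid1b and Bcl11a begin inside the annotated gene.
Smarca2: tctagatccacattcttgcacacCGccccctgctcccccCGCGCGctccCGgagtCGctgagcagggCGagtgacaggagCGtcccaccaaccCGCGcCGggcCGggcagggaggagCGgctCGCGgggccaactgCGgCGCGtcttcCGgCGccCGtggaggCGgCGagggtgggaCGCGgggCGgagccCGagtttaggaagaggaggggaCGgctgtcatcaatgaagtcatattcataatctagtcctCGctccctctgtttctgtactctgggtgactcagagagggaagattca
Arid1b: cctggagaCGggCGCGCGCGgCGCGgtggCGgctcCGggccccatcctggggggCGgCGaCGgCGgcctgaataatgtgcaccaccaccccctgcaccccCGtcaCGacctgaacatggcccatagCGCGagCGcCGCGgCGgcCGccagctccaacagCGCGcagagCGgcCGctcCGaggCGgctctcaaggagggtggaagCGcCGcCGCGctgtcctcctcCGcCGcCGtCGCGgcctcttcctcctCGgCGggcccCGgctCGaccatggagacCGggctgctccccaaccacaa
Bcl11a: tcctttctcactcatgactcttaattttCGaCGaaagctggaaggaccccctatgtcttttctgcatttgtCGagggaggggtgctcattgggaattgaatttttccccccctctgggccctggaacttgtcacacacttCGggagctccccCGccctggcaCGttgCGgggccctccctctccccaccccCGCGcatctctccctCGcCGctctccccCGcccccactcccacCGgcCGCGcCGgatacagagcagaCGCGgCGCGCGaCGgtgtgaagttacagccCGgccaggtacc
Dpf3: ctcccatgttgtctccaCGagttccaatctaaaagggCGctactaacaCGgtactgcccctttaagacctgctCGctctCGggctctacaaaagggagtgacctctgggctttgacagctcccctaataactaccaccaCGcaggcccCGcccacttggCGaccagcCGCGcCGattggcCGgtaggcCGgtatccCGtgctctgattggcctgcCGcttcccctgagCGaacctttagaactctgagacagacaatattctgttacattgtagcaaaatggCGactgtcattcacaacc
Smarca4: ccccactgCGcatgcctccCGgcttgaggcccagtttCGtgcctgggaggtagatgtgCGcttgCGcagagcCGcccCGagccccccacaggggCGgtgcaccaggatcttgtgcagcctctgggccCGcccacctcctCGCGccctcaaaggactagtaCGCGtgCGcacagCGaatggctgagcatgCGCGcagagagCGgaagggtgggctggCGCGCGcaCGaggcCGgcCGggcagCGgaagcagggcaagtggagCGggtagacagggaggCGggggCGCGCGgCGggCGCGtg
The region around a gene that the authors tested is not given in the sources used here, so these windows are gene starts and not binding sites. They hold 29 CG dinucleotides in Smarca2, 42 in Arid1b, 23 in Bcl11a, 17 in Dpf3 and 33 in Smarca4, so the unlisted Smarca4 has more of them than 3 of the 4 listed genes.

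Of the 34 genes, 16 (47.1%) were in the Foxp1KspKO list, where 20.9% of all protein-coding genes stood, and 19 (55.9%) were in the control list, where 29.0% stood. Both lists contained 12 of them (35.3%, against 13.2% of all protein-coding genes). The Foxp1KspKO list alone contained 4 (background 7.63%), the control list alone 7 (background 15.7%), and 11 were in neither (background 63.4%). The 12 genes in both made up 75.0% of the members in the Foxp1KspKO list, where 63.4% of all protein-coding genes were shared, and 63.2% of the members in the control list, where 45.7% were. Both of these shares lay above their background. The counts carry no test, since the genes were chosen with earlier results of these data known.

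At a deposited p-value under 0.01, the Foxp1KspKO list held 12 members (35.3%, against 12.6% of protein-coding genes) and the control list 17 of the 34 (background 21.1%). Under 0.001 there were 6 for the Foxp1KspKO ChIP (17.6%, against 6.62%) and 10 for the control ChIP (29.4%, against 14.3%). Under 1e-10 there were 0 members in the Foxp1KspKO list, where 0.237% of protein-coding genes passed, and 6 (17.6%) in the control list, where 2.21% passed. The median −log10 p of the listed members was 2.79 in the Foxp1KspKO ChIP, against 2.27 for all listed protein-coding genes, and 3.73 in the control ChIP, against 2.95. Members ranged from 1.44 to 5.72 in the Foxp1KspKO ChIP and from 1.65 to 29.8 in the control ChIP.

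**Figure D1:**
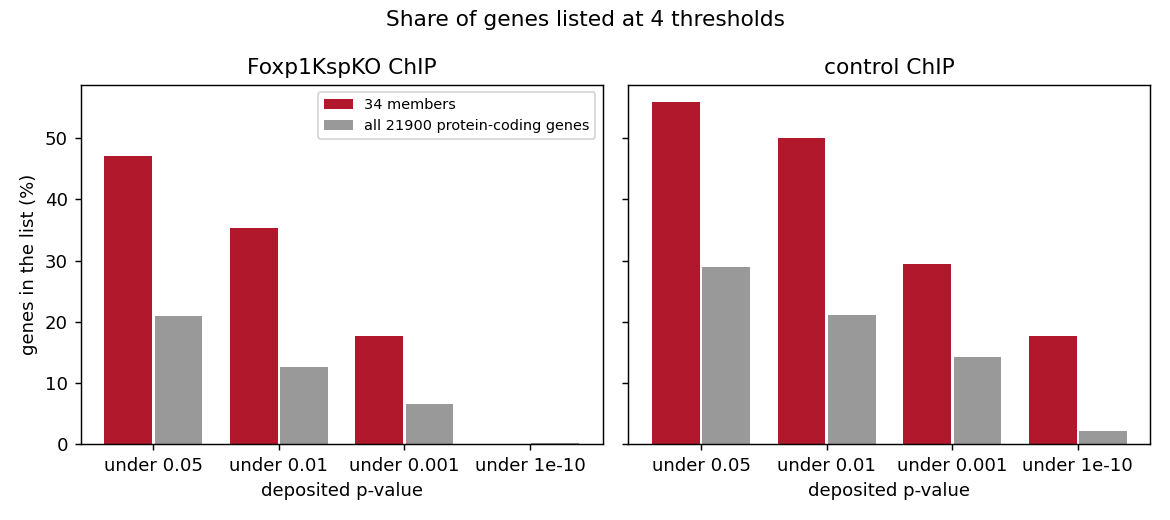
Percent of genes in each ChIP list (vertical axis) with a deposited p-value under each of 4 thresholds (horizontal axis), for the 34 SWI/SNF and related genes (red) beside all 21900 protein-coding genes (grey), 1 library per panel and no error bars. The red bar is higher at every threshold except in the Foxp1KspKO ChIP under 1e-10, where no member was listed.

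Counts by role are given beside the background share, which was 20.9% for Foxp1KspKO and 29.0% for control. The roles hold 2 to 7 genes each, and nothing particular to a role is read from its count. Of the catalytic subunits, 1 of 2 was in each list. The authors' deposited table gave Smarca2 (chromosome 19, 26605073 to 26778321), the BRM ATPase, a p-value of 4.01e-05 for the Foxp1KspKO library, against 1.50e-30 for the control library. It ranked 691 of 4953 genes for the Foxp1KspKO ChIP and 50 of 6799 for the control ChIP, and its control p-value was the lowest of any member. Smarca4 (chromosome 9, 21616106 to 21704230), the alternative BRG1 ATPase, was listed for neither library.

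Among the shared core, 5 of 7 genes were in the Foxp1KspKO list (background 20.9%) and 5 of 7 in the control list (background 29.0%), 4 of them in both. Smarcd3, a BAF60 subunit known from heart and skeletal muscle (chromosome 5, 24592622 to 24624456), had 0.00304 for the Foxp1KspKO library in the authors' deposited table, against 1.03e-12 for the control library. Its paralog Smarcd2, known from granulocyte development, differed little between the libraries, with 0.00192 for the Foxp1KspKO ChIP and 0.00184 for the control ChIP in the authors' deposited table. The third BAF60 gene, Smarcd1, was listed for the Foxp1KspKO library alone, at 0.0228 in the authors' deposited table. The whole trio was therefore in the Foxp1KspKO list, and Smarcd3 had a control p-value lower by more than 10-fold.

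Smarcb1, the subunit lost in rhabdoid tumours, had 0.0224 for Foxp1KspKO and 0.00429 for control in the authors' deposited table. The HMG-box subunit gene Smarce1 had 0.0274 for Foxp1KspKO and 0.00178 for control in the authors' deposited table. The scaffold gene Smarcc2 was listed for the control library only, at 0.00539 in the authors' deposited table, and its paralog Smarcc1 for neither.

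Subunits that bind the ATPase directly form its module. The Foxp1KspKO list contained 0 of these 7 genes (background 20.9%) and the control list 3 (background 29.0%), all with p-values above 0.001. These were, in the authors' deposited table, Bcl7c at 0.00397, Ss18, the gene fused in human synovial sarcoma, at 0.0150, and Bcl7a at 0.0223. Bcl7b, Ss18l1 and the actin-related genes Actl6a and Actl6b were in neither list.

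Of the canonical BAF genes, 4 of 5 were in the Foxp1KspKO list (background 20.9%) and 3 of 5 in the control list (background 29.0%). Arid1b (chromosome 17, 4994297 to 5347656), one of the alternative ARID subunits that define this complex, had 0.00419 for the Foxp1KspKO library, against 1.04e-20 for the control library, in the authors' deposited table. Its paralog Arid1a (chromosome 4, 133679008 to 133756769) differed by less than 10-fold, with 7.95e-06 for Foxp1KspKO and 1.59e-06 for control in the authors' deposited table. The order of these paralogs was thus opposite in the libraries, with Arid1a the lower in the Foxp1KspKO ChIP and Arid1b the lower in the control ChIP.

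The Dpf genes encode PHD-finger readers of acylated histones. The authors' deposited table gave Dpf3 (chromosome 12, 83213751 to 83487736) 0.00212 for the Foxp1KspKO library, against 3.35e-13 for the control library. Dpf1 was listed for the Foxp1KspKO library alone, at 9.48e-05 in the authors' deposited table, and the widely expressed Dpf2 for neither. Both listed members of this trio are the ones known from neurons, while the neuronal paralogs Actl6b and Ss18l1 were not listed.

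Of the PBAF genes, 1 of 4 was in the Foxp1KspKO list (background 20.9%) and 2 of 4 were in the control list (background 29.0%). Arid2 (chromosome 15, 96287522 to 96405463), the ARID subunit of PBAF, had 0.00119 for Foxp1KspKO, against 2.05e-22 for control, in the authors' deposited table. Phf10, another PHD-finger subunit, was listed for the control library only, at 1.38e-04 in the authors' deposited table. The bromodomain genes Pbrm1 and Brd7 were in neither list.

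Non-canonical BAF, a smaller assembly without ARID subunits, had 2 of 3 genes in the Foxp1KspKO list (background 20.9%) and 1 of 3 in the control list (background 29.0%). Bicra (chromosome 7, 15970671 to 16048146), a scaffold that defines this complex, had the lowest Foxp1KspKO p-value of any member, 1.89e-06 in the authors' deposited table, at rank 342 of that list, and was not in the control list. Brd9 (chromosome 13, 73937801 to 73960895), its bromodomain partner, had 2.41e-04 for the Foxp1KspKO library, against 0.00993 for the control library, in the authors' deposited table. It was the single gene of the 12 in both lists whose Foxp1KspKO p-value was the lower. Bicral, the paralog of Bicra, was in neither list.

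The zinc finger gene Bcl11a (chromosome 11, 24076564 to 24173558), a repressor of fetal globin genes, had 0.00134 for the Foxp1KspKO ChIP, against 4.10e-18 for the control ChIP, in the authors' deposited table. Bcl11b, known from T cell development, was in the control list only, at 1.85e-04 in the authors' deposited table. Among the related ATPases, Smarca1 (chromosome X, 47809370 to 47892613), an ISWI motor, had 4.09e-04 for Foxp1KspKO and 5.01e-07 for control in the authors' deposited table. Its paralog Smarca5 was listed for the control library only (0.00895) in the authors' deposited table, and Smarcad1, a remodeler that acts in DNA end resection, for the Foxp1KspKO library only (0.0362). Smarcal1, a helicase that restarts stalled replication forks, was in neither list.

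**Figure D2:**
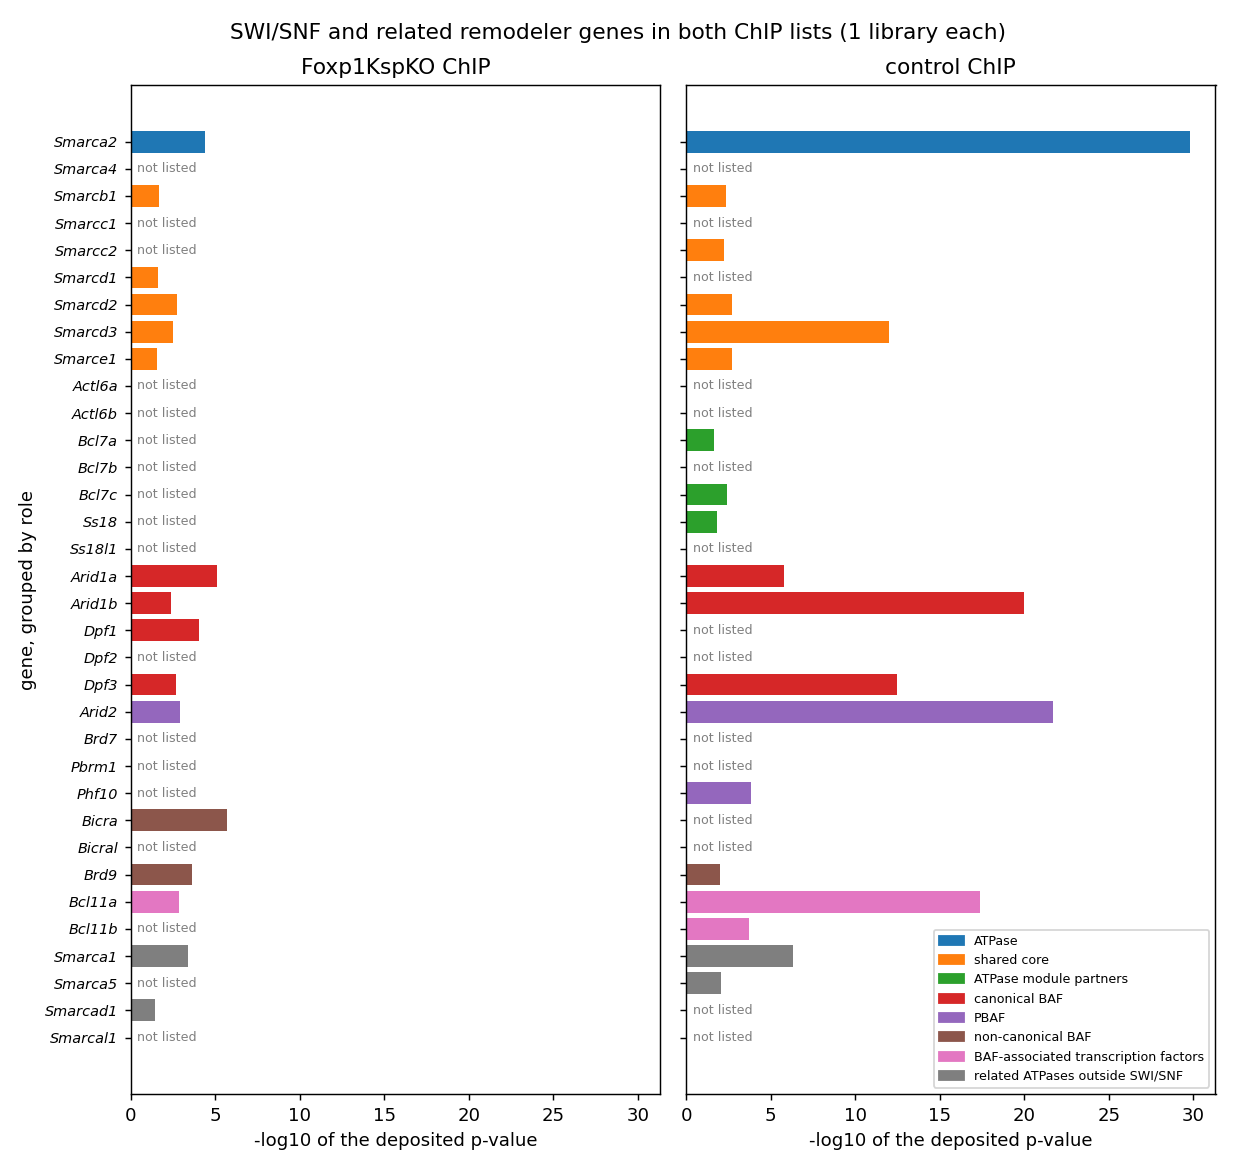
Bars give −log10 of the deposited p-value (horizontal axis, same scale in both panels) for each of the 34 genes (vertical axis, coloured by role), with the Foxp1KspKO ChIP on the left and the control ChIP on the right, 1 library each. Foxp1KspKO bars reach at most 5.72, at Bicra, whereas 6 control bars lie above 10, at Smarca2, Arid2, Arid1b, Bcl11a, Dpf3 and Smarcd3.

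Among the 12 genes in both lists, the control ChIP gave 11 (91.7%) their lower p-value, against 72.2% of the 2900 protein-coding genes in both lists. The control value was lower by at least 10-fold for 8 of the 12, against 54.4% of the 2900. In 3 genes, Arid1a, Smarcb1 and Smarcd2, the libraries differed by less than 10-fold, and in Brd9 the Foxp1KspKO value was lower by more than 10-fold. The libraries differ in the overall strength of their lists, so ranks within each list were compared as well, a choice made after the data were seen. The control rank was the better for 9 of the 12 (75.0%), against 57.9% of the 2900. Arid1a, Smarcd2 and Brd9 had the better rank in the Foxp1KspKO ChIP.

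The 6 genes with control p-values under 1e-10 ranked within the first 5.24% of the control list. The same 6 lay between 14.0% (Smarca2) and 46.6% (Arid1b) of the Foxp1KspKO list. Arid1a ranked at 9.39% of the Foxp1KspKO list and 19.8% of the control list. Smarcd2 ranked at 37.9% in Foxp1KspKO and 53.4% in control, and Brd9 at 21.5% in Foxp1KspKO and 72.2% in control.

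**Figure D3:**
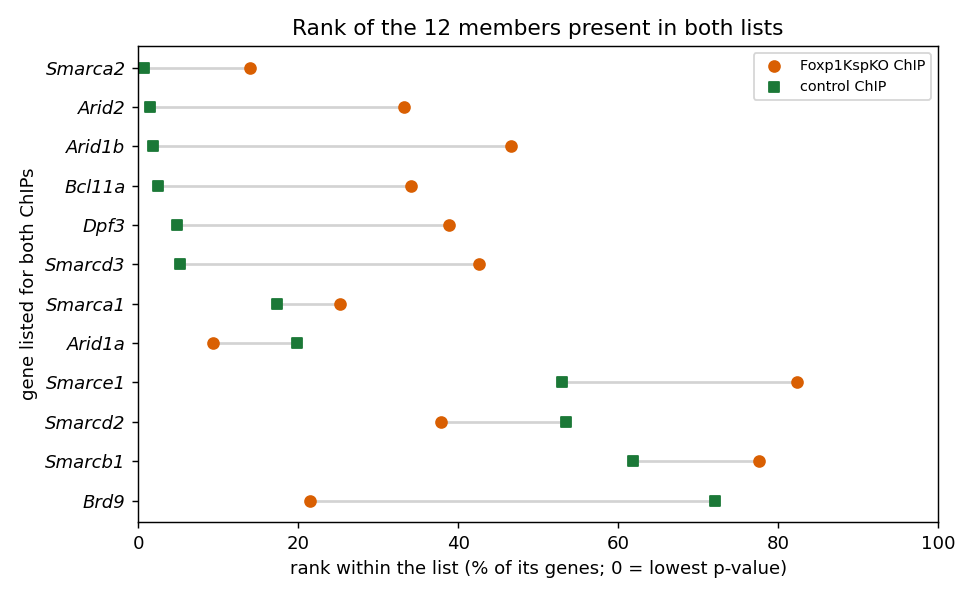
Rank of the 12 genes present in both lists, as a percent of the genes in each list (horizontal axis, 0 is the lowest p-value), with Foxp1KspKO ChIP ranks as orange circles and control ChIP ranks as green squares, 1 library each. The 6 uppermost genes have control ranks of at most 5.24% and Foxp1KspKO ranks of at least 14.0%, and for Arid1a, Smarcd2 and Brd9 the circle lies to the left of the square.

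The deposited list that the authors call unique to the control library contained 11 of the 34 (32.4%, against 15.1% of all protein-coding genes). It held all 7 genes that were in the control list alone, Phf10, Bcl11b, Bcl7c, Smarcc2, Smarca5, Ss18 and Bcl7a. It also held 4 genes that the Foxp1KspKO list contained, Arid2, Arid1b, Bcl11a and Dpf3. These are part of the 116 symbols, of 3483 in the unique list, that were also in the Foxp1KspKO list. Dpf3, at 3.35e-13 in the authors' deposited table, had the highest control p-value of all 116. Smarcd3, at 1.03e-12, was not in the unique list, and neither was Smarca2, whose Foxp1KspKO p-value of 4.01e-05 in the authors' deposited table lay under the lowest of the 116, 1.93e-04. Membership in the unique list therefore does not mean absence from the Foxp1KspKO list for these genes. Smarca2, whose −log10 p differed the most between the libraries among the 12, was not in it. By rank within each list other members differed more. Brd9 ranked at 21.5% for Foxp1KspKO and 72.2% for control, against 14.0% and 0.735% for Smarca2.

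Of 12 paralog families, 6 had some but not all genes in the Foxp1KspKO list and 7 in the control list. No background was computed for families, so nothing particular to paralogs is read from these counts. All genes were listed in 2 families for the Foxp1KspKO ChIP, the BAF60 trio and Arid1a with Arid1b, and in 3 for the control ChIP, Arid1a with Arid1b, Bcl11a with Bcl11b and Smarca1 with Smarca5. The actin-related pair was in neither list.

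The members were longer than other genes, with a median length of 43415 bp against 17146 bp for all protein-coding genes. Longer genes were listed more often: in the Foxp1KspKO list stood 19.0% of protein-coding genes under 20 kb, 21.4% of those from 20 to 50 kb, 24.4% of those from 50 to 100 kb and 25.3% of those over 100 kb. In the control list the shares were 24.2%, 30.1%, 38.0% and 40.3%. Members numbered 3 of 8, 4 of 10, 5 of 9 and 4 of 7 in the Foxp1KspKO list over the same classes, and 2 of 8, 8 of 10, 5 of 9 and 4 of 7 in the control list. Weighted by the members' length classes, the background came to 22.4% for the Foxp1KspKO list and 32.9% for the control list, while 47.1% and 55.9% of the members stood there. Over genes of any biotype the background was 9.90% for the Foxp1KspKO list and 13.6% for the control list.

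Of the 6 genes with control p-values under 1e-10, 5 were at least 97.0 kb long. The lengths of all protein-coding genes under this limit were not computed, so nothing particular to the members is read from this count. Across the 16 members in the Foxp1KspKO list, gene length and −log10 p had a Spearman rho of 0.21, and across the 19 in the control list 0.66. Over all listed protein-coding genes rho was 0.04 for the Foxp1KspKO list and 0.09 for the control list. These are descriptions across genes of 1 library each, and genes are not independent replicates. Median length was 80503 bp for the 12 members in both lists and 32359 bp for the 11 in neither. It was 39517 bp for the 7 in the control list alone and 43556 bp for the 4 in the Foxp1KspKO list alone. However, Smarca4, Smarcal1, Smarcc1, Pbrm1 and Bicral, each at least 88.1 kb long, were not listed. The part of gene length in the members' listing was not tested.

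**Figure D4:**
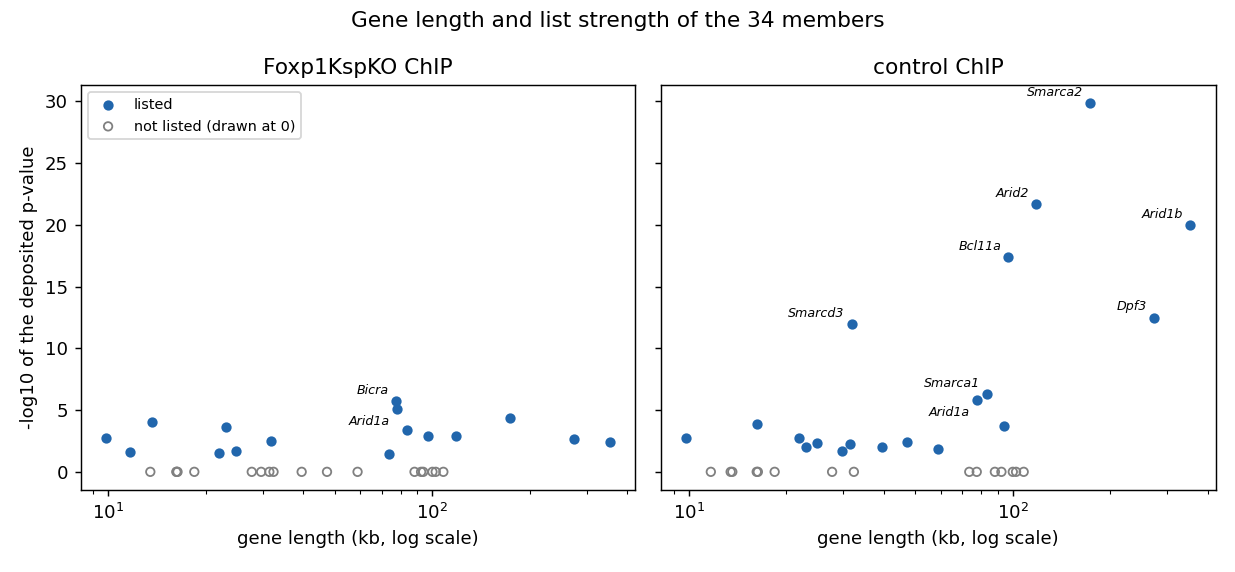
Gene length in kb (horizontal log axis) against −log10 of the deposited p-value (vertical axis) for the 34 genes, Foxp1KspKO ChIP on the left and control ChIP on the right; open circles at 0 are genes not listed. In the control panel 5 of the 6 genes above 10 are at least 97.0 kb long and Smarcd3 is 31.8 kb long, while in the Foxp1KspKO panel no gene lies above 5.72.

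A promoter window was present in the RefSeq table for 28 of the 34, all but Arid2, Smarce1, Bcl7a, Ss18, Bicra and Bicral. Their windows were rich in CG dinucleotides, with a median of 31.5 (range 4 to 62) against 15 for the 17492 protein-coding genes with a window. At least 15 were present in 24 of the 28, against 8748 of the 17492. Of these 24 genes, 11 were in the Foxp1KspKO list, where 25.8% of all protein-coding genes with such windows stood, and 12 were in the control list, where 35.7% stood. The lowest count was in Smarcd2, with 4, and the highest in Phf10, with 62. The median was 28 for the 10 members in both lists and 31 for the 10 in neither. It was 40 for the 5 in the control list alone and 35 for the 3 in the Foxp1KspKO list alone.

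Forkhead motifs, which differ from each other in their first base, were searched in the same windows on both strands. GTAAACA was found in 0 of the 28 members' windows, against 3.45% of the 17492 genes with a window, and ATAAACA in 0 of 28, against 4.59%. The absence says only that these letters are not in these 300 bases.

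Other chromatin remodelers served as a comparison, with 14 of 39 (35.9%, background 20.9%) in the Foxp1KspKO list and 17 (43.6%, background 29.0%) in the control list. In both lists stood 9 of the 39 (background 13.2%). In 8 of these 9 the control p-value was the lower one, as it was for 72.2% of all protein-coding genes in both lists. Partners of the ISWI motors had 5 of 9 genes in the Foxp1KspKO list (background 20.9%) and 7 of 9 in the control list (background 29.0%). Cecr2, which had the lowest value of that family in each library, had 6.57e-07 for Foxp1KspKO, against 8.44e-15 for control, in the authors' deposited table. Baz2a followed in the control ChIP, with 0.00457 for Foxp1KspKO and 1.25e-12 for control in the authors' deposited table, and Baz2b had 2.00e-04 for Foxp1KspKO and 7.49e-11 for control.

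The CHD family, whose Chd3, Chd4 and Chd5 are motors of the NuRD complex, had 5 of 9 genes in the Foxp1KspKO list (background 20.9%) and 5 of 9 in the control list (background 29.0%). Chd4 had 0.00150 for Foxp1KspKO and 2.72e-11 for control in the authors' deposited table, Chd1 had 0.00547 for Foxp1KspKO and 2.43e-10 for control, and Chd3 had 0.0192 for Foxp1KspKO and 1.34e-09 for control. Chd8 was listed for the Foxp1KspKO library alone, at 1.81e-05 in the authors' deposited table, and Chd6 had 0.00220 for Foxp1KspKO and 0.00229 for control. INO80 and SRCAP genes had 3 of 13 in the Foxp1KspKO list and 4 of 13 in the control list, which is 23.1% and 30.8%, near the background shares of 20.9% and 29.0%. Their strongest value was that of Yy1, a zinc finger partner of INO80, with 4.75e-04 for Foxp1KspKO, against 3.38e-14 for control, in the authors' deposited table. The ATPase gene Ruvbl1 (2.61e-04) and Ino80e (0.00181) were listed for the Foxp1KspKO library alone, and Ino80 (7.86e-04) and Ino80c (0.0268) for the control library alone, in the authors' deposited table. The remaining SNF2-type genes had 1 of 8 in each list (background 20.9% for Foxp1KspKO and 29.0% for control), Ttf2 at 0.0489 for Foxp1KspKO and Atrx at 0.00166 for control in the authors' deposited table.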

How the data were processed

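ChIP-seq libraries were made from tubular cells of newborn kidneys, 1 ChIP and 1 input for Foxp1KspKO mice and 1 of each for littermate controls. Per the submitters' processing notes, edgeR, Bowtie2, Trimmomatic, deepTools and FastQC were used with the mouse builds mm10 and GRCm38, without versions or roles. The authors deposited 3 gene lists with 1 p-value per gene, all under 0.05, and per the file headers these hold a symbol, an NCBI number, an Ensembl identifier and the p-value. The test, its comparison library, the region tested and any adjustment are not stated in the headers or labels. A longer or stronger list can reflect depth, which is unknown.

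Sheet names that match the sample descriptions tied the lists to libraries. Members were found by symbol. Backgrounds count the 21900 protein-coding genes of the RefSeq table (GRCm38.p6) by NCBI number, with the lowest p-value kept for repeated rows. Genes with more than 1 promoter window took the highest CG count. No test was made, and counts of listed genes are read against the share of all protein-coding genes listed. Paralog families have no background, and neither do the adjusted counts or those of the unique list and of both lists under 0.001. The count of long genes under 1e-10 and that of neighbours with the lower p-value have none either. The members, the gene lists and the comparisons were chosen with earlier results of these data known. Every member listed in either ChIP is named with its value, and of other remodelers the 3 lowest p-values per family and list. Protein identity between paralogs was planned and not run, as no protein table was used here. Python 3.11.15, pandas 2.3.3, SciPy 1.17.1 and Matplotlib 3.10.9 were used, and the adjustment and motif scans were tested on simulated data.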

Additional observations from a re-analysis of the deposited data

How the results depend on the processing

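Counts of listed members depended on the threshold. Under a p-value of 0.001 they were 6 for the Foxp1KspKO ChIP, 10 for the control ChIP, 6 for the unique list and 3 for both lists, against 16, 19, 11 and 12 as deposited, a fall that follows from the stricter limit. The other settings fixed at the start kept the counts within 1.5 times: p under 0.01, matching by gene number, leaving out the 6 genes that are not SWI/SNF subunits, Benjamini-Hochberg adjustment over all protein-coding genes (12 for the Foxp1KspKO ChIP and 17 for the control ChIP, treating the deposited p-values as unadjusted and unlisted genes as 1), and the highest p-value of repeated rows for the unique list. The adjusted counts, and those of the unique list and of both lists under 0.001, have no background, so nothing particular to the members is read from them. Of the 12 genes in both lists, 8 had a control p-value lower by at least 10-fold and 9 had the better control rank, against 11 with the lower control p-value. Another setting fixed at the start changed the background and not the counts. With genes of any biotype it was 9.90% in place of 20.9% for the Foxp1KspKO list. For the control list it was 13.6% in place of 29.0%. No paired analysis was possible because each group holds 1 library and no test was made. Depth is unknown and limits every statement about a gene that was not listed.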

Other observations

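Listed members had other listed genes nearby about as often as listed genes in general. Another protein-coding gene of the same list lay within 100 kb of 10 of the 16 members in the Foxp1KspKO list (62.5%, against 58.3% of all listed protein-coding genes) and of 13 of the 19 in the control list (68.4%, against 68.1%). This was computed after the data were seen. The neighbour had the lower p-value for 3 members in the Foxp1KspKO list and 6 in the control list, and none shared its p-value exactly with such a neighbour in either list. No share over all listed genes was computed for these counts, so nothing particular to the members is read from them. In the authors' deposited table Gstt2, a glutathione transferase gene beside Smarcb1, had 0.0320 for the Foxp1KspKO library, where Smarcb1 had 0.0224, and 2.62e-07 for the control library, where Smarcb1 had 0.00429. Ocrl, the inositol phosphatase gene of human Lowe syndrome beside Smarca1, had 0.00313 for the Foxp1KspKO library and 2.12e-08 for the control library in the authors' deposited table. Fbxl19, beside Bcl7c, had 3.13e-10 for the control library, where Bcl7c had 0.00397. Smarca2, Arid1b and Bcl11a had no listed neighbour within 100 kb in either list. Arid2 and Dpf3, also under 1e-10 in the control list, had the listed neighbours Scaf11 and Zfyve1 there.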
